A study of Homo sapiens with 18 samples.

Results

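ID1, ID2, ID3 and ID4 encode the inhibitors of DNA binding, and the 4 genes were examined for peaks of the leukaemia fusion protein AML1-ETO among 19974 RefSeq protein-coding genes. The 4 genes were chosen by name, and a peak was assigned to a gene if it touched the gene or its flanks of 10 kb, or, counted separately, of 50 kb. The data come from Kasumi-1, an established human acute myeloid leukaemia cell line with the t(8;21) translocation that joins RUNX1 (AML1) to RUNX1T1 (ETO), here carrying AML1-ETO with a Flag tag. AML1-ETO was profiled by CUT&RUN, in which a nuclease tethered by an antibody cuts out the DNA around the bound protein for sequencing, 3 days after transduction in GFP-positive sorted cells. The control and the miR-130a knockdown (microRNA miR-130a lowered) were each profiled with anti-ETO, anti-Flag and mouse IgG, 3 libraries per group and 18 in all. Every group carried the tagged fusion, and the labels give neither the control construct nor whether the tagged line was 1 clone. The comparison asks whether AML1-ETO occupies different sites after miR-130a knockdown.

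ID proteins have a helix-loop-helix dimerisation region but no basic region for binding DNA. They pair with E proteins, the widely expressed basic helix-loop-helix factors encoded by TCF3, TCF4 and TCF12, and keep these off E-box sequences. In blood cells they hold back differentiation programmes that E proteins drive, and BMP signals acting through SMAD proteins are a well-known inducer of the ID genes. E proteins are also direct partners of AML1-ETO.

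The values are peak positions that the authors deposited as 1 list for each antibody and condition, with no height, score or library-level value. The control anti-ETO list held 14264 peaks, control anti-Flag 23162, knockdown anti-ETO 22594 and knockdown anti-Flag 25961. From these the authors also made dual-antibody lists (sites called by both antibodies in 1 condition) and shared, control-unique and knockdown-unique lists. With 1 list per group there is no spread between libraries and the depth behind each call is unknown, so no difference between conditions could be tested. No IgG peak list was used here, so the counts have no background from IgG beside them.

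The promoters of the 4 genes are shown because peaks were called on those of ID1 and ID3 and no peak was called on those of ID2 and ID4. Each sequence is the RefSeq sequence (GRCh38.p14) of the 250 bases before the transcription start, 5′ to 3′ on the gene's own strand. Capitals mark matches on either strand to the CCAAT box (written CCAAT), the TATA box (searched as TATAAA) or the E-box (with letters CANNTG). In ID1, TATA box matches on both strands overlap. The ranges are chr20:31605039-31605288 (plus strand) for ID1, chr2:8681806-8682055 (plus) for ID2, chr1:23559502-23559751 (minus) for ID3 and chr6:19837120-19837369 (plus) for ID4.
ID1: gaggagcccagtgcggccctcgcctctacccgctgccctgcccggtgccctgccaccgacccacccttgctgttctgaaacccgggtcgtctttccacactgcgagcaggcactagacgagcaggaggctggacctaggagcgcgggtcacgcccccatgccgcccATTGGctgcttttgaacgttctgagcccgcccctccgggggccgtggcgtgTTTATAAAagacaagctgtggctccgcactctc
ID2: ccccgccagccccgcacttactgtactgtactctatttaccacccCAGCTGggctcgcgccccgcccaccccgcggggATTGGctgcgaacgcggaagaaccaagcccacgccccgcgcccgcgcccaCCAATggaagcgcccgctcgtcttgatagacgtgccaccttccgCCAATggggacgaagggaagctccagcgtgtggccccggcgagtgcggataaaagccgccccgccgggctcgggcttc
ID3: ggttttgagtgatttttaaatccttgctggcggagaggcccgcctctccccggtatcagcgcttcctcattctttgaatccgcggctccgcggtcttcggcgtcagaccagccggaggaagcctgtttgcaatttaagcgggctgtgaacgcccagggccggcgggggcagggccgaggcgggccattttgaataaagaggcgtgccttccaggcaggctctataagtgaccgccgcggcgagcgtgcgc
ID4: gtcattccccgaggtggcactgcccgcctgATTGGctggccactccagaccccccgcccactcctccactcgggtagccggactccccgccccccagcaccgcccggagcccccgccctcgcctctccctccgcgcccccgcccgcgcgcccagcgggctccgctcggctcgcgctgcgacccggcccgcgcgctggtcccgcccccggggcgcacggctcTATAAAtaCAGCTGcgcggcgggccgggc

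A CCAAT box was found in 3 of the 4 promoters (ID1, ID2 and ID4) and in 33.9% of 15813 protein-coding promoters of the same length. A TATA box was found in ID1 and ID4, against 9.74% of promoters. E-box matches were found in ID2 and ID4 (CAGCTG in both), against 58.2%. The RUNX core (TGTGGT, on either strand), the sequence read by the AML1 part of the fusion, was found in 0 of the 4 promoters and in 9.50% of all promoters. The CCAAT and TATA motifs were chosen with these promoter sequences in view, so their counts beside these shares do not show an enrichment. A match is a description of the letters, and a missing match says only that these letters are not in this window. G and C made up 62.0% of the promoter bases in ID3, 66.0% in ID1, 69.2% in ID2 and 78.8% in ID4.

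The 4 genes differed in which lists had peaks near them. ID1 carried calls of both antibodies in both conditions, ID2 carried a dual-antibody call in knockdown only, ID3 carried single-antibody calls, and ID4 carried none. Merging the 4 single-antibody lists gave 17 regions within 50 kb of the genes: 6 at ID1, 3 at ID2, 8 at ID3 and 0 at ID4. Within 10 kb there were 11 regions: 5 at ID1, 3 at ID2 and 3 at ID3. Of the 17 regions, 6 were called in control only, 5 in knockdown only and 6 in both conditions. Over all 35622 merged regions the shares were 13.4% in control only, 37.8% in knockdown only and 48.8% in both.

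**Figure D1:**
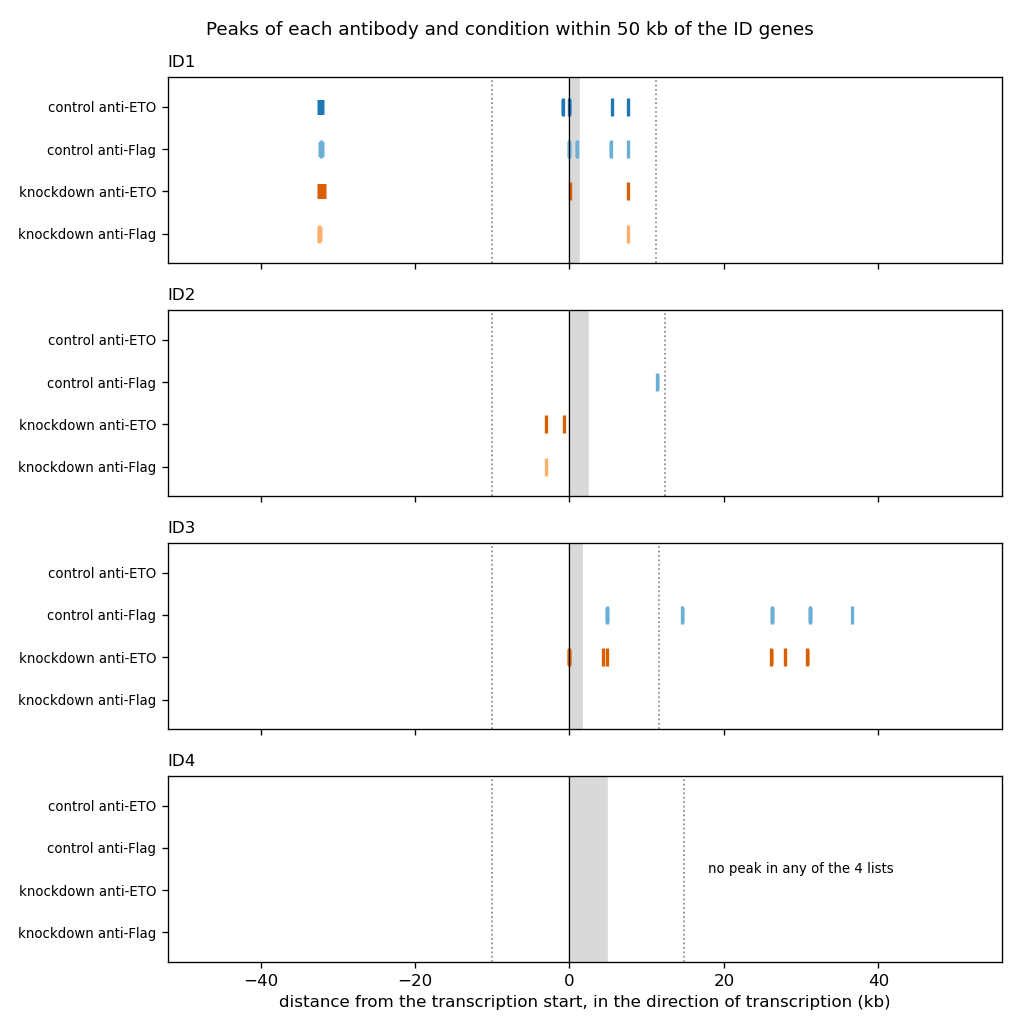
Peaks of the 4 single-antibody lists around each ID gene. The x axis is distance from the transcription start in kb, in the direction of transcription. Grey marks the gene body, dotted lines mark 10 kb on either side of it, and peaks under 0.9 kb are drawn with a tick of fixed width. All 4 lists have peaks at ID1, no control anti-ETO peak lies at ID2 or ID3, and no list has a peak at ID4.

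Within 10 kb, a control anti-ETO peak was found for 1 of the 4 genes (ID1), against 47.6% of all protein-coding genes. A control anti-Flag peak was found for 3 (ID1, ID2 and ID3), against 50.2%. A knockdown anti-ETO peak was found for the same 3, against 53.8%. A knockdown anti-Flag peak was found for 2 (ID1 and ID2), against 42.2%. The ID genes are short, from 1.22 kb (ID1) to 4.83 kb (ID4), and a short gene has a smaller window. Among the 3161 protein-coding genes of up to 5 kb the shares were 38.1%, 42.7%, 43.6% and 38.4% in the same order. Counts of 1 to 3 lie on both sides of these shares, and 4 genes are too few to set the family apart.

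Widening the window to 50 kb added no gene to any list. A peak within 50 kb was found for 61.7% of protein-coding genes in control anti-ETO, 62.6% in control anti-Flag, 65.8% in knockdown anti-ETO and 54.2% in knockdown anti-Flag. The number of peaks went from 4 to 5 for control anti-ETO, from 6 to 11 for control anti-Flag, from 7 to 11 for knockdown anti-ETO and from 2 to 3 for knockdown anti-Flag. The dual-antibody lists went from 3 to 4 peaks in control (1 gene, background 57.7%) and from 2 to 3 in knockdown (2 genes, 51.9%). Within 50 kb, the shared list held 2 peaks and the control-unique list 2, all at ID1, and the knockdown-unique list 1, at ID2. The backgrounds of these 3 lists were 48.4%, 30.2% and 29.5%. The added peaks were a site upstream of ID1 and sites downstream of ID3. At the limits, the farthest peak inside 10 kb lay 8.77 kb from ID2 and the next lay 12.9 kb from ID3, both control anti-Flag peaks. The farthest inside 50 kb lay 34.9 kb from ID3 (control anti-Flag), and the next outside lay 73.2 kb from ID3 (control anti-ETO).

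ID1 (gene 3397, chr20:31605289-31606510, plus strand), the family member with dual-antibody calls in both conditions, had 4 control anti-ETO, 4 control anti-Flag, 2 knockdown anti-ETO and 1 knockdown anti-Flag peaks within 10 kb. Fewer peaks were thus called in knockdown for both antibodies. More control than knockdown anti-ETO peaks within 10 kb were found for 5.05% of protein-coding genes, where the opposite was found for 32.4%. For anti-Flag the shares were 21.8% and 18.7%. The control dual-antibody list held 3 peaks within 10 kb of ID1 and the knockdown dual-antibody list held 1. A control dual-antibody peak was found within 10 kb of 43.8% of protein-coding genes and a knockdown one of 39.4%.

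The ID1 promoter was called by both antibodies in control and by anti-ETO alone in knockdown. The control anti-Flag peak ran from 31605003 to 31605443 (441 bp) and covered all 250 promoter bases shown above. The control anti-ETO peak ran from 31605074 to 31605433 (360 bp) and covered 215 of them. Both therefore spanned the CCAAT and TATA matches, and both ended inside the gene, 154 and 144 bp past its start.

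The knockdown anti-ETO peak ran from 31605263 to 31605445, was 183 bp wide and covered the last 26 of the 250 bases. It began at the last base of the TATAAA match (31605258 to 31605263), and the CCAAT match (31605205 to 31605209) lay outside it. The edge of a called peak does not place the protein to within a few bases. These positions therefore do not show that binding moved off either match. Of the knockdown anti-ETO list, 3.92% of peaks were narrower. The call was lost when each knockdown list was trimmed to its widest peaks, as many as the control list holds. That trim kept knockdown anti-ETO peaks from 381 bp. The 360-bp control anti-ETO peak on this promoter is narrower too but was not put to the cut. No knockdown anti-Flag peak touched the promoter, and the nearest lay 6.23 kb from the gene. The site was therefore listed as control-unique, with its deposited interval equal to the control anti-Flag peak. The upstream edge of this control-unique interval also overlapped the non-coding gene LOC105372588.

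This promoter pattern, called by every list except knockdown anti-Flag, was found at 1001 of 15813 promoters (6.33%; window from 250 bases before to 50 after the start). Of the 3944 promoters called by both antibodies in control, it made up 25.4%. The ID1 pattern was thus shared with many other promoters of these lists. A control-unique peak touched 5.78% of promoters.

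The other control-unique site of ID1 lay 3.96 kb past the end of the gene (chr20:31610469-31610981) and had no call by either antibody in knockdown. The control anti-Flag peak there ran from 31610469 to 31610844 and the control anti-ETO peak from 31610725 to 31610981. They overlapped by 120 bp, which is 46.7% of the anti-ETO and 31.9% of the anti-Flag peak. When the overlap had to reach 50% of each peak, this site was no longer a dual-antibody peak. Regions called by both antibodies in control and neither in knockdown made up 1.76% of all merged regions. A control-unique peak within 10 kb was found for 16.9% of protein-coding genes, and 2 or more, as at ID1, for 2.48%.

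Another ID1 site, 6.22 kb past the gene (chr20:31612731-31612915), was called in all 4 lists and stood in the shared list. Its peaks were 176 bp wide in control anti-ETO, 183 in control anti-Flag, 185 in knockdown anti-ETO and 176 in knockdown anti-Flag. The edges of the 4 peaks thus lay within a few bases of each other. A width of 176 bp was the narrowest of the control anti-ETO list. Both knockdown calls at this site were lost when each knockdown list was trimmed to its widest peaks, as many as the control list holds. The equally narrow control peaks were not put to that cut.

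ID1 had 2 more sites within 10 kb, each in 1 list. A control anti-ETO peak lay 707 bp before the gene (31604235 to 31604582), and a control anti-Flag peak lay inside the gene towards its end (31606067 to 31606381). Neither had a call in knockdown. Regions called by control anti-ETO alone made up 1.40% of all merged regions, and by control anti-Flag alone 10.2%.

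The widest ID1 site lay 31.6 kb before the gene (shared interval chr20:31572558-31573734, 1177 bp) and was called in all 4 lists. It overlapped 2 non-coding genes, HM13-AS1 and LOC107985416, and its nearest protein-coding gene was HM13, a signal peptide peptidase gene 3.02 kb away. Its peaks were 960 bp wide in control anti-ETO, 761 in control anti-Flag, 1113 in knockdown anti-ETO and 578 in knockdown anti-Flag. The peak was thus wider in knockdown for anti-ETO and narrower in knockdown for anti-Flag. Every ID1 peak within 10 kb had ID1 as its nearest protein-coding gene, and this distant site did not.

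**Figure D2:**
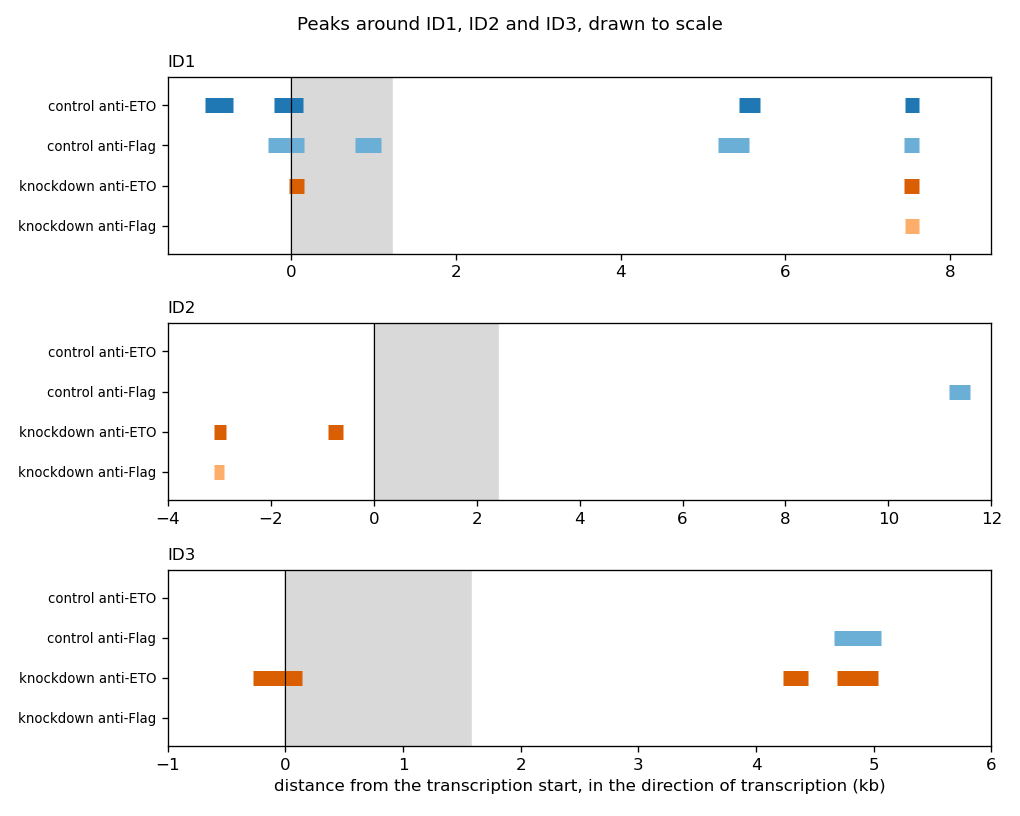
Peaks close to ID1, ID2 and ID3 drawn to scale. The x axis is distance from the transcription start in kb, in the direction of transcription. Grey marks the gene body and the vertical line the start. The ID1 start lies in 3 of the 4 lists' peaks, the ID3 start lies in a knockdown anti-ETO peak alone, and the ID2 start lies in none.

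ID2 (gene 3398, chr2:8682056-8684461, plus strand), the inhibitor best known in blood for its part in lymphoid lineage choice, had no control anti-ETO peak within 50 kb. The nearest control anti-ETO peak lay 97.9 kb away. In knockdown, anti-ETO had 2 peaks and anti-Flag 1, all before the gene and all inside the antisense gene ID2-AS1. A knockdown anti-ETO peak with no control anti-ETO peak within 10 kb was found for 8.09% of protein-coding genes, and ID2 and ID3 were both of this kind. They were so within 50 kb as well, against 6.10%.

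The knockdown-unique site of ID2 lay 2.86 kb before the gene (chr2:8678952-8679196). It was made of a 245-bp anti-ETO peak and a 185-bp anti-Flag peak (8678954 to 8679138), which lay wholly inside it. No control peak of either antibody touched it. This was the only knockdown-unique peak within 50 kb of any of the 4 genes. A knockdown-unique peak within 10 kb was found for 18.4% of protein-coding genes, and regions called by both antibodies in knockdown and neither in control made up 5.20% of all regions.

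The second ID2 peak of knockdown anti-ETO was 289 bp wide and ended 600 bp before the gene (8681168 to 8681456). It had no anti-Flag call in either condition and stopped short of the promoter bases shown. The last ID2 peak was a control anti-Flag peak of 410 bp, 8.77 kb past the gene (8693231 to 8693640), with no call in the other 3 lists. None of the 3 ID2 sites was called in both conditions.

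The ID2 calls in knockdown were narrow. Of the knockdown-unique list, 5.00% of peaks were narrower than the 245-bp ID2 peak, and of the knockdown anti-Flag list 9.43% were narrower than its 185-bp peak. Under the trimming by width applied to the ID1 promoter call, both antibodies lost all ID2 peaks, and the knockdown-unique count fell from 1 to 0.

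ID3 (gene 3399, chr1:23557926-23559501, minus strand), a gene often mutated in Burkitt lymphoma, had no dual-antibody peak in either condition. Its peaks came from control anti-Flag and knockdown anti-ETO. Within 10 kb there were 1 control anti-Flag and 3 knockdown anti-ETO peaks, and within 50 kb 5 and 6. The other 2 lists had 0 peaks within 50 kb, with the nearest control anti-ETO peak 73.2 kb away and the nearest knockdown anti-Flag peak 106 kb away.

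The ID3 promoter was called by knockdown anti-ETO alone. That peak ran from 23559362 to 23559778 (417 bp), covered all 250 promoter bases shown and reached 139 bp past the start. Promoters called by knockdown anti-ETO alone numbered 673 of 15813 (4.26%). The peak was 2.28 times as wide as the knockdown anti-ETO peak at the ID1 start. It remained in the list under the same trimming, which follows from its width alone. It was also inside the non-coding gene LOC124903876.

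Past the end of ID3, 1 site was called by control anti-Flag (23554435 to 23554839, 405 bp) and by knockdown anti-ETO (23554462 to 23554815, 354 bp), the second lying wholly inside the first. A further knockdown anti-ETO peak (23555056 to 23555268, 213 bp) lay beside it, 2.66 kb from the gene. Farther out, 2 more sites were called by the same pair of lists, at chr1:23528097-23528932 and chr1:23533032-23533572. At the first of these the peaks overlapped by 106 bp, and at the second by 424 bp. In all, 3 of the 8 ID3 regions were called by control anti-Flag and knockdown anti-ETO and by no other list, a class holding 3.75% of all merged regions. The 3 regions lie in 1 neighbourhood and are not independent of each other.

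The remaining ID3 regions were each in 1 list. The control anti-Flag list alone held the sites 12.9 kb and 34.9 kb from ID3, and the knockdown anti-ETO list alone held one 26.3 kb away. All 4 regions more than 20 kb from ID3 lay in E2F2 or had it as the nearest protein-coding gene. E2F2 is a cell-cycle transcription factor gene, and the assignment of these regions to ID3 rests on the window.

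ID4 (gene 3400, chr6:19837370-19842197, plus strand), the longest member, had no peak in any of the 9 lists within 50 kb. No peak of the 4 single-antibody lists within 50 kb was found for 30.3% of protein-coding genes. The nearest peak of each single-antibody list lay 182 kb away at 1 site, which ran from 20023743 to 20024399 in control anti-ETO and from 20023782 to 20024170 in knockdown anti-Flag. Of all protein-coding genes, 79.7% had a control anti-ETO peak as near or nearer. ID4 was the only member without a call, and the lists cannot tell an unbound site from one below the calling threshold.

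Ordered by distance to the nearest control anti-ETO peak, the genes were ID1 (0 kb, peak on the gene), ID3 (73.2 kb), ID2 (97.9 kb) and ID4 (182 kb), where the median protein-coding gene had 14.0 kb. For knockdown anti-ETO the order was ID1 and ID3 (both 0 kb), ID2 (0.600 kb) and ID4 (182 kb), with a median of 3.71 kb. For control anti-Flag it was ID1 (0 kb), ID3 (3.09 kb), ID2 (8.77 kb) and ID4 (182 kb), with a median of 9.61 kb. For knockdown anti-Flag it was ID2 (2.92 kb), ID1 (6.23 kb), ID3 (106 kb) and ID4 (182 kb), with a median of 31.6 kb. ID4 was last in every list, and ID1 was first in each except knockdown anti-Flag, sharing first place with ID3 in knockdown anti-ETO.

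**Figure D3:**
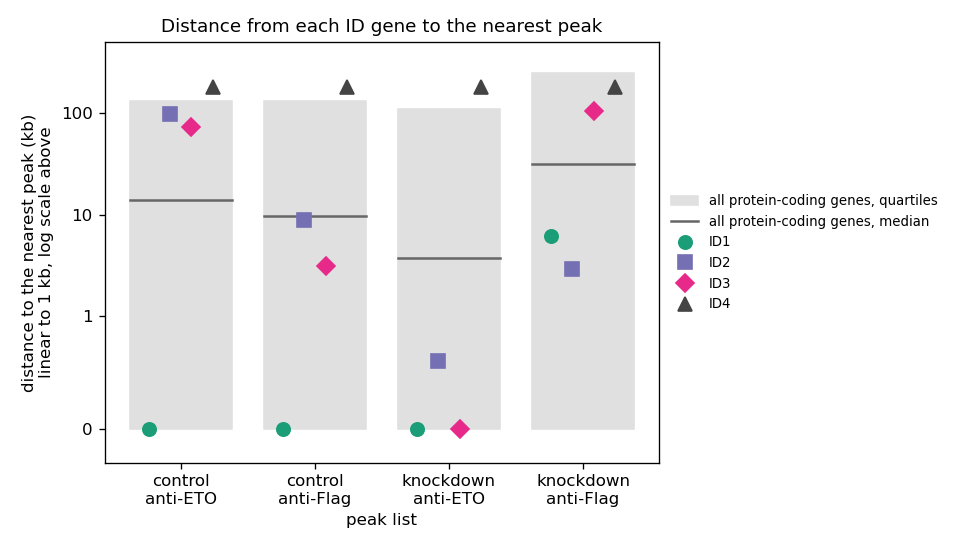
Distance from each ID gene to the nearest peak of each single-antibody list. The y axis is in kb, linear up to 1 kb and logarithmic above. Grey boxes span the quartiles and lines give the median over 19974 protein-coding genes. ID2 and ID3 lie 97.9 and 73.2 kb from a control anti-ETO peak and 0.600 and 0 kb from a knockdown anti-ETO peak.

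Most peaks at the ID genes were narrow for their lists. Within 10 kb, 18 of the 19 single-antibody peaks were narrower than the median of their own list, and their widths ran from 176 to 441 bp. The exception was the control anti-Flag peak on the ID1 promoter, at 441 bp against a list median of 416 bp. Within 50 kb, 23 of 30 were narrower than their list's median, and the widest was the 1113-bp knockdown anti-ETO peak between HM13 and ID1. By construction 50% of a list lies on either side of its median. Several of these peaks mark the same site, so the 30 are not independent.

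**Figure D4:**
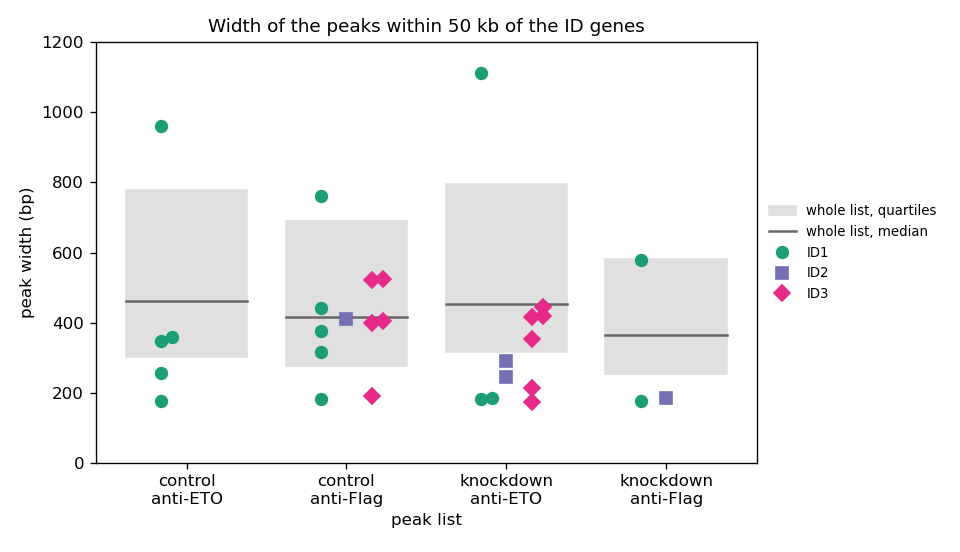
Width in bp of each peak within 50 kb of ID1, ID2 or ID3, by list. Points of nearly equal width are set side by side. Grey boxes span the quartiles of the whole list and lines give its median. Apart from the upstream ID1 site at 578 to 1113 bp, the points lie at 523 bp or below.

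The partners and pathway genes, 21 in number, were counted in the same way within 10 kb. A control anti-ETO peak was found for 10 of 21, a control anti-Flag peak for 11, a knockdown anti-ETO peak for 10 and a knockdown anti-Flag peak for 7. These shares lie near the backgrounds of 47.6%, 50.2%, 53.8% and 42.2%. A shared peak was found for 7 of 21 (background 35.1%), a control-unique peak for 4 (background 16.9%) and a knockdown-unique peak for 3 (background 18.4%). These counts too lie near their backgrounds. The control-unique peaks lay at TCF12, LDB1, ACVR1 and SMAD7, and the knockdown-unique peaks at TCF3, LDB1 and SMAD7.

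The 3 E protein genes, whose products the ID proteins bind, differed from each other. TCF3, which encodes E12 and E47, had 4 control anti-ETO, 9 control anti-Flag, 8 knockdown anti-ETO and 13 knockdown anti-Flag peaks, with 4 shared and 2 knockdown-unique peaks. Both knockdown-unique peaks lay inside the gene (chr19:1613123-1613529 and chr19:1624383-1624855). TCF12, which encodes HEB, had 1 control anti-ETO, 1 control anti-Flag, 2 knockdown anti-ETO and 0 knockdown anti-Flag peaks. Its control-unique peak lay at the first bases of the gene span (chr15:56918129-56918871). TCF4 had 0 peaks in all 4 lists although it is 414 kb long. A control-unique site is by definition called by both antibodies in control, so TCF12 and the ID1 promoter share this by construction. No knockdown anti-Flag peak was found within 10 kb of TCF12, nor of ACVR1, another gene with a control-unique peak.

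Of the 5 blood partner genes, LYL1, LMO2 and LDB1 had peaks in every single-antibody list, while TAL1 and TAL2 had 0 within 10 kb. A peak in every single-antibody list was found for 37.3% of protein-coding genes. LDB1, the bridging cofactor of the TAL1 complex, had 1 control-unique peak (chr10:102118692-102119628) and 1 knockdown-unique peak (chr10:102121418-102121857). The knockdown-unique peak touched the edge of LDB1 and also overlapped the gene PPRC1. Of the 10 BMP and SMAD genes, BMPR2, SMAD4 and SMAD7 had peaks in all 4 lists. ACVR1, a BMP type I receptor gene, had a control-unique peak (chr2:157876165-157876451). SMAD7, an inhibitor of this signalling, had 1 control-unique peak (chr18:48929047-48929253) and 1 knockdown-unique peak (chr18:48951292-48952011). SMAD1 had a control anti-ETO peak alone, SMAD6 a control anti-Flag peak alone, and BMPR1A, BMPR1B, SMAD5 and SMAD9 had 0. Of the cell-cycle inhibitor genes, CDKN1A had 2 control anti-Flag peaks and 1 knockdown anti-ETO peak, and CDKN2A and CDKN2B had 0. The CDKN1A lists were those of ID3 within 10 kb, but within 50 kb CDKN1A, unlike ID3, also had 1 knockdown anti-Flag peak.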

How the data were processed

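Peak positions from CUT&RUN were analysed. The submitters' processing notes name fastp 0.19.5, Bowtie2 2.3.5, MACS2 2.2.5, HOMER 4.8 and the builds hg38 and sacCer3, without roles. Thresholds, use of IgG and pooling of replicates are not given in the sources used here. A more permissive threshold or deeper libraries lengthen a list and can create unique peaks in its condition. The authors deposited 9 BED lists, per the file names, with start and end in bp and no score. Groups came from sample titles.

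Intervals were compared in Python 3.11.15 (numpy 2.4.6) with gene spans of GRCh38.p14 RefSeq and a minimum overlap of 1 bp, counting from 1. bedtools 2.31.1 gave the same 36 of 36 counts, and 10 of 10 checks on simulated lists passed. Promoter windows were matched for 15813 protein-coding genes, including all 4 ID genes. Joining the single-antibody lists at an overlap of at least 100 bp gave back all 3059 control-unique and 4616 of the 4617 knockdown-unique intervals, and this rule was used where lists were rebuilt. The ID genes and partner list were chosen with earlier results of these data known, and the CCAAT and TATA motifs with the promoter sequences in view. The text names the 4 ID genes, the 3 E proteins and every partner with a unique peak within 10 kb. The other partners were named to account for the list. Alternatives changed peak assignment, list length and overlap.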

Additional observations from a re-analysis of the deposited data

How the results depend on the processing

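Of 68 counts recomputed under an alternative, 36 stayed within 1.5 times the reported count. Counting peaks by their centre, or rebuilding the lists with an overlap of at least 1 bp, moved none of the 20 counts tried. With an overlap of at least 50% of both intervals, the control-unique count at the ID genes fell from 2 to 1 in both windows, because the site past ID1 dropped out. Keeping the wider 50% of each list left, within 10 kb, 0 control anti-ETO, 1 control anti-Flag, 0 knockdown anti-ETO, 0 knockdown anti-Flag, 0 shared, 1 control-unique and 0 knockdown-unique peaks. Within 50 kb it left 1, 4, 1, 1, 1, 1 and 0 in the same order. Each list was cut on its own here, and the shared and unique lists were not rebuilt. The control-unique peak left was the 513-bp site 3.96 kb past ID1, although both of its single-antibody peaks (257 and 376 bp) were cut. The 441-bp control-unique interval on the ID1 promoter was lost. The control-unique count of this setting therefore does not show a dual-antibody site that withstood the cut.

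With each knockdown list trimmed to its widest peaks, as many as the control list holds, knockdown anti-ETO had 1 peak within 10 kb (the ID3 promoter) and 4 within 50 kb, and knockdown anti-Flag had 0 and 1. The shared list then had 0 and 1 and the knockdown-unique list 0 and 0, while control-unique rose from 2 to 3, all at ID1. The added control-unique peak was the site 6.22 kb past ID1. This setting cut its narrow knockdown peaks and kept its equally narrow control peaks, so it is no further control-specific site. With all 4 lists trimmed to the length of control anti-ETO, the counts that moved took the same values: 1 and 4, 0 and 1, 0 and 1, and 0 and 0. Control anti-Flag calls were cut as well, though within 1.5 times. They fell from 6 to 4 within 10 kb (from 4 to 2 at ID1) and from 11 to 8 within 50 kb. Control-unique was 2 in both windows in this setting. In both settings the knockdown anti-ETO call on the ID1 promoter and all ID2 calls in knockdown were lost. Both knockdown calls at the site 6.22 kb past ID1 were lost as well. All these calls rest on narrow peaks, and the narrowest knockdown anti-ETO peak kept was 381 bp wide. No control anti-ETO peak was cut in either setting. The control anti-ETO peak on the ID1 promoter, at 360 bp, would not have passed 381 bp either. The loss at the ID1 promoter therefore does not set the conditions apart. Width is a stand-in for a score, which the lists do not carry.

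No paired analysis was possible because the lists name no replicate, and for the same reason leaving out a replicate was not run. The depth behind each call is unknown.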

Other observations

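The site 6.22 kb past ID1 (chr20:31612731-31612915) was called by both antibodies in both conditions with edges that differed by a few bases. Its knockdown calls were lost when the knockdown lists were trimmed by width, a cut that its equally narrow control calls did not face. Its shared interval of 185 bp was among the narrowest of the list: 2 of the 8731 shared peaks were narrower, against a median of 1047 bp. Shared intervals join the calls of both conditions, which widens them, so a site this narrow needs 4 peaks that nearly coincide.

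ID2 and ID3 both lacked control anti-ETO peaks within 50 kb and had knockdown anti-ETO peaks within 1 kb of the transcription start. A knockdown anti-ETO peak with no control anti-ETO peak within 50 kb was found for 6.10% of protein-coding genes. The knockdown anti-ETO list is the longer, with 22594 against 14264 peaks. Fewer control than knockdown anti-ETO peaks within 50 kb were found for 45.6% of genes. With the knockdown lists trimmed by width, ID3 kept its promoter peak (417 bp) and ID2 lost both of its knockdown anti-ETO peaks (245 and 289 bp). Neither ID2 peak had reached the promoter. The trim sorts on width alone, so its outcome restates these widths. Neither start had an anti-Flag call in either condition. With 1 list per group, this difference between conditions was not tested.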
